A study of Mus musculus with 6 samples.

Results

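The miR-23/27/24 miRNAs are made from a pair of paralogous gene clusters, Mir23a, Mir27a and Mir24-2 on chromosome 8 (called the a cluster here) and Mir23b, Mir27b and Mir24-1 on chromosome 13 (the b cluster). The members were chosen by name, and all 9 mature miRNAs looked for were found among the 1034 distinct miRNAs of the deposited table. Of these, 4 come only from the a cluster (mmu-miR-23a-3p, mmu-miR-27a-3p, mmu-miR-27a-5p and mmu-miR-24-2-5p), 4 only from the b cluster (mmu-miR-23b-3p, mmu-miR-27b-3p, mmu-miR-27b-5p and mmu-miR-24-1-5p) and 1, mmu-miR-24-3p, from both. The species prefix mmu is left out below. Small RNA had been sequenced from nephron progenitor cells of CD1 mice, taken either in mid-gestation (embryonic stage E14.5) or at birth (P0), with 3 samples for each stage. Each sample pooled the kidneys of 1 litter, up to 24 of them, digested for 15 min and enriched for progenitors on beads against Itga8. The labels named no genetic change and no treatment in either group, so stage was the only labelled difference. The cells were enriched rather than pure, and the assay measured no protein-coding marker of nephron progenitors. In such bulk samples, fewer cells of a type and less RNA per cell cannot be told apart.

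A miRNA hairpin is cut into a short duplex whose arms are named 5p and 3p. Usually one arm, the guide, is kept by an Argonaute protein and pairs with messenger RNAs through its seed, bases 2 to 8, while the other, the passenger, is mostly degraded. In both clusters the 3p arms are the usual guides. These clusters are known for high expression in endothelial cells and for roles in angiogenesis, and miR-27 is also known as a regulator of fat cell differentiation. Since each cluster is transcribed as 1 precursor, its miRNAs share a promoter but can differ in processing and stability.

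The mature sequences of 8 of the 9 members, all but miR-23b-3p, were matched by name in RefSeq (GRCm38.p6). They are shown 5′ to 3′ with the seed in capitals, because the seed sets which members can be expected to share targets and the other bases set how well reads can be told apart.
miR-23a-3p: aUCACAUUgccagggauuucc
miR-27a-3p: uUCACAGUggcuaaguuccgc
miR-27b-3p: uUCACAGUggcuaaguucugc
miR-24-3p: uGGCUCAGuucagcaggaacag
miR-27a-5p: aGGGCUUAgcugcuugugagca
miR-27b-5p: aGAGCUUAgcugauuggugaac
miR-24-1-5p: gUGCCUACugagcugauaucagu
miR-24-2-5p: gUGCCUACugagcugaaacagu

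miR-27a-3p and miR-27b-3p shared their seed and differed by 1 base, C19U (the base of miR-27a-3p first, counted from 1 at the 5′ end). Reads that end before position 19 cannot be assigned to one of the pair, so the division of reads between them depended on the authors' counting. Without a sequence for miR-23b-3p, its seed was not compared with that of miR-23a-3p. How well the reads of the miR-23 pair can be told apart was not examined. miR-24-1-5p and miR-24-2-5p also shared their seed, and their first difference was at position 17 (U17A, the base of miR-24-1-5p first). Position by position, miR-27a-5p and miR-27b-5p differed at 8 of their 22 bases. Their first difference lay inside the seed, G3A, the base of miR-27a-5p first. No gaps were allowed, so an inserted base counts as several differences. miR-24-3p was the same sequence in both hairpins, as the RefSeq hairpins show with that arm in capitals.
Mir24-1: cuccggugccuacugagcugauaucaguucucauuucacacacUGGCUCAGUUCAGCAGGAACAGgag
Mir24-2: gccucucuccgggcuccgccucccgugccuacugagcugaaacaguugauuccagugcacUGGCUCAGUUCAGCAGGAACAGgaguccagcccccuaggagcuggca

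On GRCm38 (mm10) the a cluster hairpins spanned 404 bases, chr8:84208518-84208921 on the plus strand. Mir23a and Mir27a lay between annotated genes of GENCODE M21, and Mir24-2 overlapped an exon of the long non-coding RNA Gm26532 by 2 bases. The b cluster hairpins spanned 792 bases, chr13:63300484-63301275, also on the plus strand, inside the protein-coding gene 2010111I01Rik. Mir23b lay in an intron of that gene, while Mir27b and Mir24-1 overlapped an annotated exon of at least 1 of its transcripts. The introns of Fancc ran across all 3 hairpins on the opposite strand. In the deposited table miR-24-3p had a row at each locus, and the 2 rows differed by 0.0800% to 1.03% of their reads in any library, so its reads could not be traced to a cluster. The sources used here do not state whether such a read was counted in both rows or in 1 of them. The row with the higher total, at chr13:63301251-63301272, is used below, and if reads had been split the level of miR-24-3p would be the sum of the rows.

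The reads recovered from the deposited values numbered between 2649506 and 34934526 per library, with E14.5 replicates 1 and 3 the shallowest. All 9 members passed the filter on low values (mean over the libraries of 1 TPM or more), which left a tested set of 670 miRNAs. In TPM (reads per base of feature, scaled to the same total in every library) the median miRNA of that set had a log2 fold change of −1.20 at P0 over E14.5, against −0.17 after median-of-ratios scaling, which sets libraries to a common typical miRNA. The stage difference of each member is therefore given under both scalings. P0 replicate 1 stood apart from the other P0 libraries: across the tested miRNAs its correlation averaged 0.948 with E14.5 libraries but 0.908 with those of its own stage, so results are also given without it. Values of 3 libraries are listed in the order of replicates 1, 2 and 3 throughout. The p-values measure the spread between these litters.

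The 3p arms were the main product of both clusters, and the b cluster outweighed the a cluster. The 5 guides miR-23a-3p, miR-23b-3p, miR-27a-3p, miR-27b-3p and miR-24-3p together took 3.07%, 2.39% and 2.24% of all TPM in the E14.5 libraries. At P0 they took 3.51%, 1.78% and 1.55%. The stages overlapped, because P0 replicate 1 had the highest share of all. miR-27b-3p alone made up 64.8% ± 0.764 of this sum before birth (E14.5) and 73.5% ± 3.14 at birth (SD, n = 3). With the rows of miR-24-3p summed, miR-27b-3p made up 54.0% to 56.3% in the E14.5 libraries and 60.4% to 65.1% in the P0 libraries.

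miR-27b-3p (chr13:63300760-63300780), a repressor of lipid metabolism and angiogenesis genes in other tissues, had 20087, 15317 and 14570 TPM in the E14.5 libraries, and 24560, 13389 and 11688 TPM in the P0 libraries. It ranked between 13 and 20 among all miRNAs of each library. The stages overlapped and its log2 fold change was −0.07 in TPM (SE 0.44, limma's adjusted p = 0.911). After median-of-ratios scaling the change was 1.21 (SE 0.41, limma's adjusted p = 0.0750), with 8498 to 13287 scaled TPM at E14.5 and 20612 to 28004 at P0. On that scale the stages did not overlap, a pattern seen with higher P0 values in 15.8% of the 670 tested miRNAs. Leaving out P0 replicate 1 gave a scaled change of 1.06, which passed the threshold (limma's adjusted p = 0.0162), and a TPM change of −0.40, which did not (limma's adjusted p = 0.196).

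miR-24-3p, known for targets in the cell cycle and in apoptosis, had 5588, 4425 and 3538 TPM in the E14.5 libraries. At P0 it had 5494, 2835 and 2473 TPM. Replicates 2 and 3 of P0 lay below every E14.5 library and P0 replicate 1 lay within their range. The log2 fold change was −0.39 in TPM (SE 0.48, limma's adjusted p = 0.511) and 0.89 after scaling (SE 0.42, limma's adjusted p = 0.160). On scaled values the P0 libraries all lay above the E14.5 libraries, so the sign differed between the 2 scalings. Summing its rows gave 7040 to 11143 TPM at E14.5 and 4933 to 10992 TPM at P0, with a log2 fold change of −0.39 (limma's adjusted p = 0.501). With P0 replicate 1 left out it was −0.75 in TPM (limma's adjusted p = 0.0388) and 0.71 after scaling (limma's adjusted p = 0.0899).

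miR-23b-3p (chr13:63300529-63300549), the b cluster guide of the miR-23 pair, had 3258, 2901 and 2515 TPM in the E14.5 libraries, and 3319, 1205 and 983 TPM in the P0 libraries. The highest value of all 6 libraries was that of P0 replicate 1. Its log2 fold change was −0.87 in TPM (SE 0.54, limma's adjusted p = 0.213) and 0.42 after scaling (SE 0.44, limma's adjusted p = 0.520). When P0 replicate 1 was left out, the TPM change was −1.40 (limma's adjusted p = 0.00106), whereas the scaled change was 0.058 (limma's adjusted p = 0.878).

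miR-23a-3p (chr8:84208563-84208583), the a cluster guide of the same pair, had 960, 863 and 924 TPM in the E14.5 libraries, a narrow spread. P0 replicates 1, 2 and 3 had 1067, 175 and 134 TPM, so P0 replicate 1 exceeded every E14.5 library while the other P0 libraries were far below them. The log2 fold change of −1.64 in TPM (SE 0.71, limma's adjusted p = 0.0869) did not pass the threshold. It was −0.36 after scaling (SE 0.59, limma's adjusted p = 0.706). Without P0 replicate 1 miR-23a-3p fell at P0 under both scalings, by 2.57 on the log2 scale in TPM (limma's adjusted p = 3.74e-05) and by 1.11 after scaling (limma's adjusted p = 0.0133). It was the only one of the 5 guides called lower under both scalings without that library. Those fits called 53.4% of the tested miRNAs lower in TPM and 27.2% after scaling.

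miR-27a-3p (chr8:84208727-84208747), which differs from miR-27b-3p by the base given above, had 804, 439 and 847 TPM in the E14.5 libraries. Its P0 values were 708, 190 and 228 TPM. Here E14.5 replicate 2 was the lowest of its stage and lay below P0 replicate 1. The log2 fold change was −1.09 in TPM (SE 0.61, limma's adjusted p = 0.164) and 0.19 after scaling (SE 0.48, limma's adjusted p = 0.810). In the fit that left out P0 replicate 1 it was −1.68 in TPM (limma's adjusted p = 0.00187) and −0.22 after scaling (limma's adjusted p = 0.592).

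The guides had a fixed order of levels at E14.5, miR-27b-3p above miR-24-3p, then miR-23b-3p, miR-23a-3p and miR-27a-3p, with no overlap between neighbours in that order. At P0 the first 4 kept this order in all 3 libraries, although only miR-27b-3p had a range apart from its neighbour. miR-23a-3p and miR-27a-3p could not be ordered at P0, since miR-23a-3p was the higher in 1 of 3 libraries.

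**Figure D1:**
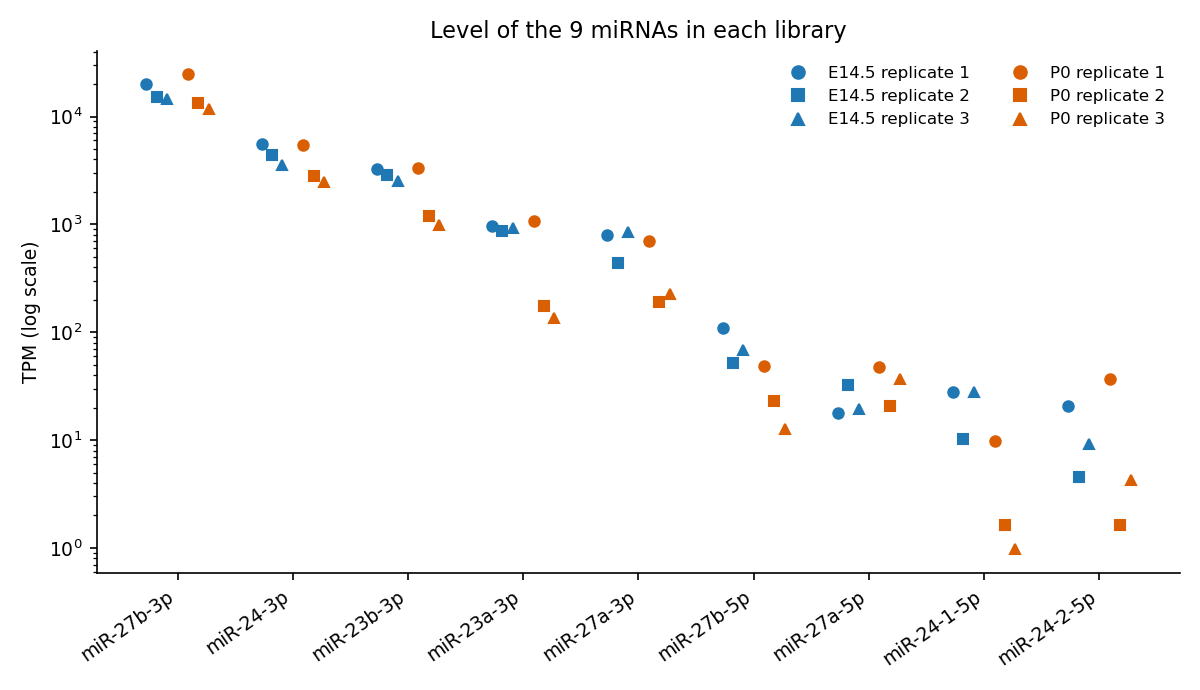
Level of each of the 9 miRNAs in TPM (log axis) in the 6 libraries, 1 point per library, with E14.5 in blue and P0 in orange and the symbol giving the replicate number. P0 replicate 1 is the highest P0 library for all 9 miRNAs, and for miR-27b-5p and miR-24-1-5p the P0 points all lie below the E14.5 points.

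The 5p passenger arms were all rarer than the guides, with at most 109.8 TPM in any library, and they held the only member called in TPM. miR-24-1-5p (chr13:63301213-63301235), the passenger of the b cluster's Mir24-1, had 27.8, 10.2 and 27.8 TPM in the E14.5 libraries, from 77, 251 and 149 reads. P0 replicates 1, 2 and 3 had 9.91, 1.63 and 0.977 TPM, from 361, 38 and 22 reads. The stages did not overlap, although E14.5 replicate 2 and P0 replicate 1 nearly met. On the log2 scale its TPM fell by 2.45 (SE 0.73, limma's adjusted p = 0.0235). After median-of-ratios scaling the change was −1.42 (SE 0.70, limma's adjusted p = 0.174) and did not pass the threshold. With single libraries left out, the TPM call was lost in 4 of 6 fits, those without E14.5 replicate 1 (limma's adjusted p = 0.0947), E14.5 replicate 3 (0.105), P0 replicate 2 (0.0724) or P0 replicate 3 (0.0734). In the fit without P0 replicate 1 it fell by 3.20 in TPM (limma's adjusted p = 0.000667) and by 2.10 after scaling (limma's adjusted p = 0.0152).

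miR-24-2-5p (chr8:84208839-84208860), the matching passenger of the a cluster, had 20.8, 4.58 and 9.20 TPM in the E14.5 libraries, from 55, 108 and 47 reads. P0 replicates 1, 2 and 3 had 37.2, 1.62 and 4.28 TPM, from 1292, 36 and 92 reads. P0 replicate 1 was the highest of the 6 libraries and P0 replicate 2 the lowest. The log2 fold change was −0.41 in TPM (SE 0.90, limma's adjusted p = 0.724) and 0.65 after scaling (SE 0.88, limma's adjusted p = 0.622), the widest errors among the 9 members. Leaving out P0 replicate 1 gave −1.53 in TPM (limma's adjusted p = 0.0615) and −0.35 on scaled values (limma's adjusted p = 0.670).

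miR-27b-5p (chr13:63300718-63300739), the passenger of Mir27b, had 109.8, 51.7 and 68.9 TPM in the E14.5 libraries, and 48.6, 23.2 and 12.6 TPM in the P0 libraries. Each P0 library was below each E14.5 library, a pattern that 46.4% of the tested miRNAs showed in TPM. Its log2 fold change was −1.55 in TPM (SE 0.64, limma's adjusted p = 0.0729) and −0.30 after scaling (SE 0.55, limma's adjusted p = 0.729). With P0 replicate 1 left out miR-27b-5p fell by 2.03 on the log2 scale of TPM (limma's adjusted p = 0.00321), whereas the scaled change of −0.62 did not pass (limma's adjusted p = 0.306).

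miR-27a-5p (chr8:84208685-84208706), the passenger of Mir27a, was the only member with a positive change in TPM. It had 17.8, 32.1 and 19.4 TPM in the E14.5 libraries, from 47, 757 and 99 reads, and 47.9, 20.9 and 36.6 TPM in the P0 libraries, from 1664, 464 and 787 reads. E14.5 replicate 2 overlapped the P0 values. Its log2 fold change was 0.56 in TPM (SE 0.59, limma's adjusted p = 0.452), higher than that of 89.0% of tested miRNAs. After scaling the change was 1.79 (SE 0.53, limma's adjusted p = 0.0557), with 11.3 to 21.9 scaled TPM at E14.5 and 39.5 to 64.6 at P0, and the stages did not overlap. Leaving out P0 replicate 1 gave 1.70 on scaled values, past the threshold (limma's adjusted p = 0.0182), and 0.30 in TPM (limma's adjusted p = 0.595). The 2 smallest libraries, E14.5 replicates 1 and 3, held the lowest TPM values of miR-27a-5p, and the part of depth in this result was not tested.

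Counted over the members, 1 of 9 was called in TPM, lower at P0, where 34.2% of the 670 tested miRNAs were called in either direction, 1.34% higher and 32.8% lower. The median log2 fold change of the members was −0.87, above the −1.20 of all tested miRNAs. After median-of-ratios scaling 0 of 9 were called by limma, against 10.9% of tested miRNAs (5.67% higher, 5.22% lower), and 2 of 9 had an unadjusted p under 0.05. With limma-voom on the recovered reads 0 of 9 were called as well (2 of 9 had an unadjusted p under 0.05), against 4.18% of tested miRNAs (2.54% higher, 1.64% lower). On the scaled values 6 of 9 estimates were positive, with a median of 0.42. Without P0 replicate 1 the count in TPM was 6 of 9, all lower, in a fit that called 61.2% of tested miRNAs, 7.76% higher and 53.4% lower. With scaling and without that library it was 4 of 9, miR-27a-5p and miR-27b-3p higher and miR-23a-3p and miR-24-1-5p lower, beside 48.8% of tested miRNAs (21.6% higher, 27.2% lower). Groups that did not overlap were found for 2 of 9 members in TPM, both lower at P0, and for 49.6% of tested miRNAs (3.13% higher, 46.4% lower). On scaled values they were found for 3 of 9 members, miR-27b-3p, miR-24-3p and miR-27a-5p, all higher at P0, and for 35.4% of tested miRNAs (15.8% higher, 19.6% lower). The authors' deposited table called 0 of the 9 at an adjusted p under 0.05, against 10.4% of its 1034 miRNAs. Its lowest p-value among the members was that of miR-27a-5p, with an unadjusted p of 0.0169 and an adjusted p of 0.0838 in the authors' deposited table, for a log2 fold change of 1.66.

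**Figure D2:**
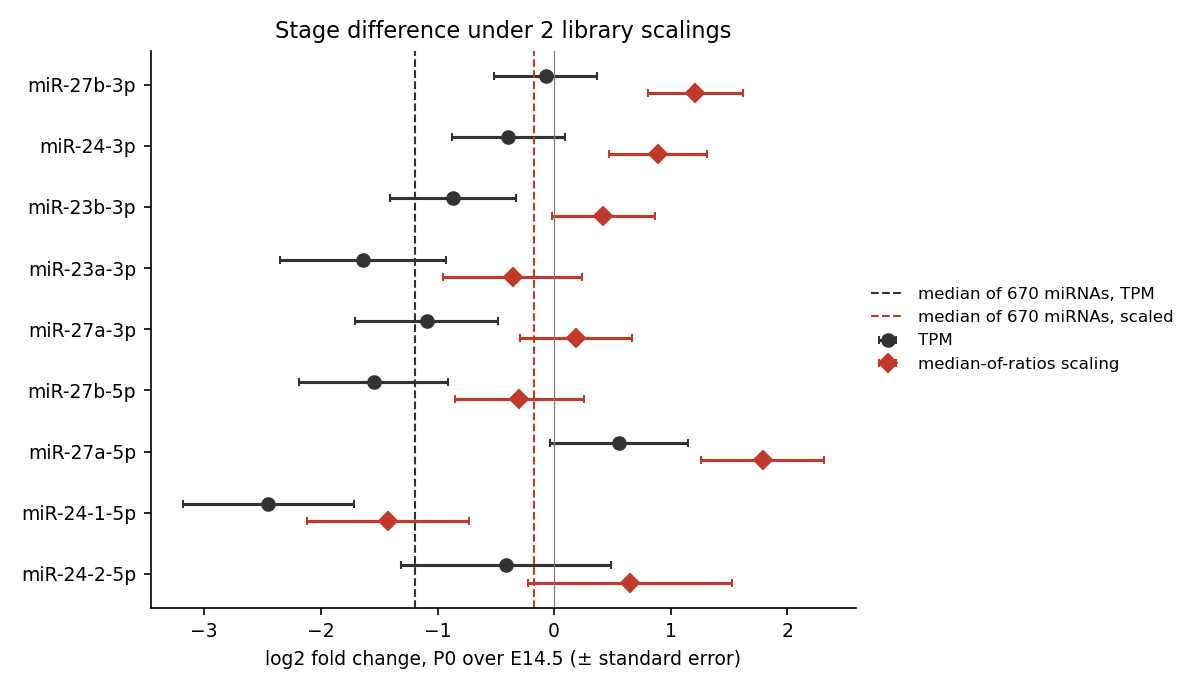
Log2 fold change of each member at P0 over E14.5 with its standard error, from the limma fits in TPM (black circles) and after median-of-ratios scaling (red diamonds); dashed lines mark the medians of the 670 tested miRNAs, −1.20 and −0.17. The scaling moves every member to the right, and miR-27a-5p and miR-24-1-5p are the rightmost and leftmost members under both.

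The a cluster was then set against the b cluster inside each library, since a ratio of 2 miRNAs of the same library hardly depends on how libraries are scaled. The ratios are log2(TPM + 1) of one member minus that of the other, and 8 of them were tested, with several sharing a member. With 3 libraries against 3, an exact two-sided permutation test cannot give a p below 0.1, so no ratio could reach 0.05. The p-values were also adjusted over the 8 ratios. How often ratios of other miRNAs kept the stages apart was computed only for arms of the same hairpin. Non-overlap of the a over b and neighbour ratios therefore has no such share beside it.

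Among the guides the a cluster was lower relative to the b cluster in P0 replicates 2 and 3 than in any E14.5 library. miR-23a-3p stood at 29.4%, 29.7% and 36.7% of miR-23b-3p in the E14.5 libraries, and at 32.1%, 14.51% and 13.7% in the P0 libraries. P0 replicate 1 fell within the E14.5 range and the other P0 libraries were well below it. The mean log2 ratio was −1.65 ± 0.180 over the E14.5 libraries and −2.43 ± 0.684 over the P0 libraries (SD, n = 3), a difference of −0.77 (exact two-sided permutation p = 0.3, adjusted 0.343), which was −1.17 without P0 replicate 1.

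miR-27a-3p stood at 4.00%, 2.87% and 5.81% of miR-27b-3p in the E14.5 libraries. In P0 replicates 1, 2 and 3 it stood at 2.88%, 1.42% and 1.95%. The stages met at E14.5 replicate 2 and P0 replicate 1. The difference of the log2 ratio was −1.02 (exact two-sided permutation p = 0.2, adjusted 0.267), and −1.28 without P0 replicate 1. Summed over both guide pairs, the a cluster gave 7.02% of the reads in E14.5 replicate 1 (95% Wilson interval 6.83 to 7.23), 6.67% in replicate 2 (6.60 to 6.75) and 9.39% in replicate 3 (9.20 to 9.58). It gave 5.98% in P0 replicate 1 (5.94 to 6.03), 2.44% in replicate 2 (2.39 to 2.49) and 2.78% in replicate 3 (2.72 to 2.84). Each P0 share of this sum was thus below each E14.5 share, with P0 replicate 1 the nearest. Neither pair alone kept the stages apart, and both pair ratios were higher in P0 replicate 1 than in E14.5 replicate 2. miR-23b-3p stood at 13.5% of miR-27b-3p in P0 replicate 1 and at 18.9% in E14.5 replicate 2. The summed share thus also depended on the make-up of the b cluster guides.

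The passenger arms showed the opposite order. miR-27a-5p stood at 16.2%, 62.1% and 28.1% of miR-27b-5p in the E14.5 libraries, and at 98.5%, 89.9% and 290.4% in the P0 libraries. The stages did not overlap, and the mean log2 ratio went from −1.67 ± 0.949 to 0.43 ± 0.897 (SD, n = 3), a 4.29-fold difference between the stages (exact two-sided permutation p = 0.1, adjusted 0.200). Without P0 replicate 1 the log2 difference of 2.10 became 2.33.

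miR-24-2-5p stood at 74.8%, 45.1% and 33.0% of miR-24-1-5p in the E14.5 libraries. It stood at 374.9%, 99.2% and 438.1% in the P0 libraries, again without overlap. The log2 difference was 2.04 (exact two-sided permutation p = 0.1, adjusted 0.200) and 1.67 without P0 replicate 1. This pair rested on few reads, with 36 reads of miR-24-2-5p and 38 of miR-24-1-5p in P0 replicate 2, where the a cluster's share of the pair was 48.6% (95% Wilson interval 37.6 to 59.8). The corresponding shares were 41.7% (33.6 to 50.2) in E14.5 replicate 1 and 30.1% (25.6 to 35.02) in E14.5 replicate 2, so P0 replicate 2 could not be told from E14.5 replicate 1 by counting alone. Summed over both passenger pairs, the a cluster made up 27.3% ± 8.60 of the TPM over the E14.5 libraries and 60.6% ± 13.8 over the P0 libraries (SD, n = 3), while for the guides of the miR-23 and miR-27 pairs it made up 7.69% ± 1.48 and 3.73% ± 1.96 of the reads.

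**Figure D3:**
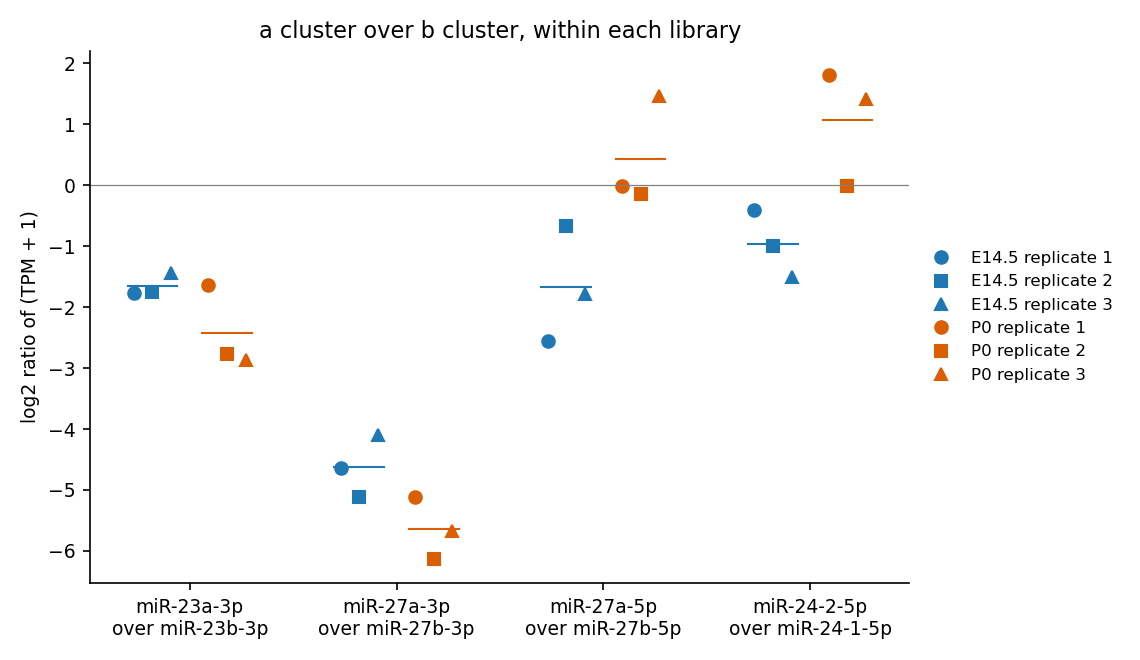
Log2 ratio of each a cluster miRNA to its b cluster counterpart in the 6 libraries (E14.5 blue, P0 orange, symbol by replicate number, short lines at stage means), with equal levels at 0. The guide ratios on the left are lower at P0 on average and overlap between stages, and the passenger ratios on the right are higher at P0 without overlap.

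The arms of single hairpins were compared in the same way. For Mir27b the passenger was scarcer at P0: miR-27b-5p stood at 0.547%, 0.338% and 0.473% of miR-27b-3p in the E14.5 libraries, and at 0.198%, 0.173% and 0.108% in the P0 libraries. The stages did not overlap, and the log2 difference was −1.47 (exact two-sided permutation p = 0.1, adjusted 0.200). For Mir27a the order was the reverse, with miR-27a-5p at 2.21%, 7.31% and 2.29% of miR-27a-3p in the E14.5 libraries and at 6.76%, 11.0% and 16.1% in the P0 libraries. Here E14.5 replicate 2 overlapped P0 replicate 1, and the log2 difference was 1.65 (exact two-sided permutation p = 0.2, adjusted 0.267).

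Across the 207 hairpins with both arms in the tested set, the rarer arm gained on the commoner arm without overlap between stages in 15.5% and lost without overlap in 15.9%. The median difference was 0.17, and miR-27a-5p and miR-27b-5p stood at the 88.9th and 15.5th percentiles of these hairpins. Shifts of either sign were thus seen at many other hairpins. The arms of Mir24-1 and Mir24-2 were not compared, because miR-24-3p could not be divided between them.

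Guides of the same precursor were compared as well. miR-23b-3p stood at 16.2%, 18.9% and 17.3% of miR-27b-3p in the E14.5 libraries, and at 13.5%, 9.0% and 8.41% in the P0 libraries. Every P0 library was below every E14.5 library, with a log2 difference of −0.79 (exact two-sided permutation p = 0.1, adjusted 0.200), and −1.0 without P0 replicate 1. In the a cluster miR-23a-3p stood at 119.3%, 196.4% and 109.1% of miR-27a-3p at E14.5 and at 150.7%, 92.0% and 58.9% at P0. Those values overlapped, and the log2 difference was −0.55 (exact two-sided permutation p = 0.4, adjusted 0.4). It was −0.89 without P0 replicate 1, −0.29 without E14.5 replicate 2 and −0.22 without P0 replicate 3.

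**Figure D4:**
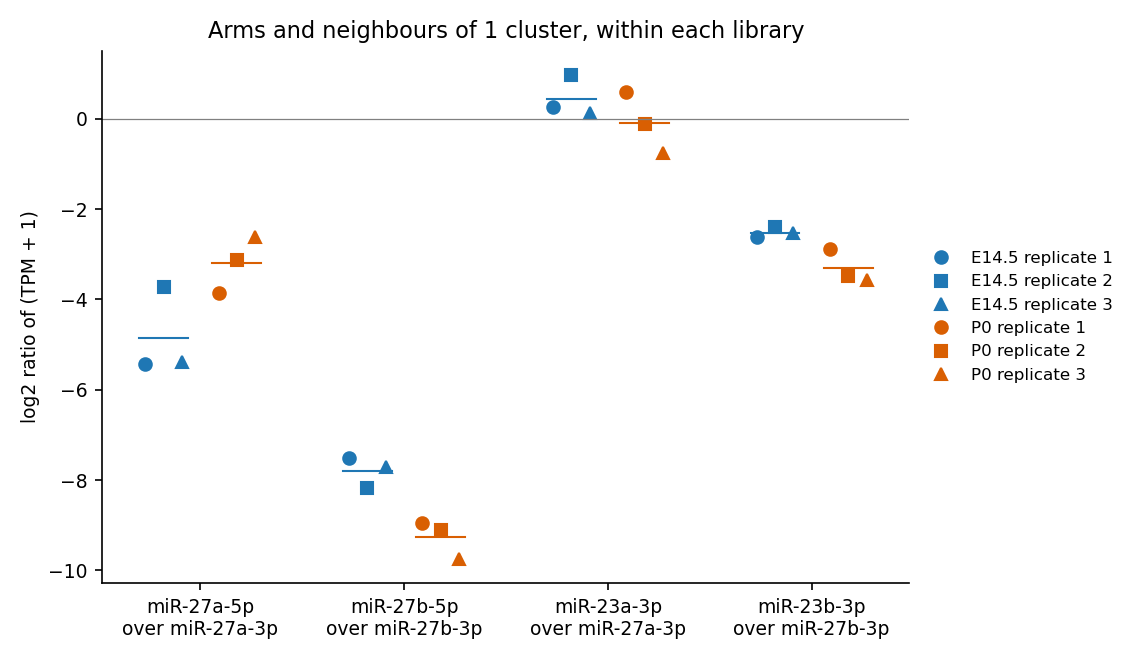
Log2 ratios inside each cluster in the 6 libraries (E14.5 blue, P0 orange, symbol by replicate number, short lines at stage means), for the arms of Mir27a and Mir27b and for the neighbouring guides. miR-27b-5p over miR-27b-3p and miR-23b-3p over miR-27b-3p are lower at P0 in every library, and the a cluster ratios overlap.

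The base composition of the members was read from the sequences above. Over 582 of the 670 tested miRNAs with a RefSeq sequence (86.9%), the stage difference had a Spearman correlation of 0.384 with GC content in TPM and 0.352 after scaling, across miRNAs that share the same 6 libraries. Among the passengers, GC content was 54.5% in miR-27a-5p and 45.5% in miR-27b-5p, and 50% in miR-24-2-5p and 47.8% in miR-24-1-5p, so the member with more GC was the one relatively higher at P0. Among the guides it was 52.4% in miR-27a-3p and 47.6% in miR-27b-3p, and there the member with more GC was the one relatively lower at P0. Within hairpins, miR-27a-5p had more GC than miR-27a-3p, and miR-27b-5p had less than miR-27b-3p. In both, the arm with more GC was relatively higher at P0 on average, with overlap between stages for Mir27a. The part of base composition in these ratios was not tested.

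The remaining arms of the same loci were rare. miR-23a-5p (chr8:84208527-84208548) had 3, 20 and 0 reads in the E14.5 libraries and 87, 34 and 54 reads in the P0 libraries, and miR-23b-5p (chr13:63300492-63300512) had 10 to 108 and 58 to 128 reads per library. miR-23a-5p was at 1.14, 0.849 and 0 TPM at E14.5 and at 2.50, 1.53 and 2.51 TPM at P0, near the floor of 3 reads (1.14, 0.127 and 0.587 TPM) in E14.5 replicates 1 and 3. Its log2 fold change was 0.99 in TPM (limma's adjusted p = 0.148), and that of miR-23b-5p was −0.05 (limma's adjusted p = 0.955). After scaling they were 1.63 (limma's adjusted p = 0.0588) and 0.94 (limma's adjusted p = 0.245). miR-3074 is read from the opposite strand of the Mir24 hairpins, and the sources used here did not state whether counting used strand. miR-3074-5p had 21.1 to 23.9 TPM before birth and 9.06, 26.6 and 14.7 TPM in the P0 libraries, with a change of −0.51 on the log2 scale (limma's adjusted p = 0.489), which was 0.72 after scaling (limma's adjusted p = 0.444). miR-3074-1-3p had 1.96 to 3.31 TPM before birth and 0.978, 0.720 and 0 TPM in the P0 libraries, with a change of −1.26 on the log2 scale (limma's adjusted p = 0.0754), which was −0.65 after scaling (limma's adjusted p = 0.406). With a pseudocount of 0.1 the TPM changes of miR-23a-5p and miR-3074-1-3p were 2.19 and −2.59. With limma-voom they were 3.21 and −1.98, and none of these was called. Of these 4 arms limma called 0 in TPM, where 34.2% of tested miRNAs were called, and limma-voom called 0, where 4.18% were. In each of these fits 1 arm had an unadjusted p under 0.05. Leaving out P0 replicate 1, limma called 1 of 4 in TPM, miR-3074-1-3p (−1.46, limma's adjusted p = 0.0391), in a fit that called 61.2% of tested miRNAs. With scaling and without that library it called 2, miR-23a-5p (1.70, limma's adjusted p = 0.0230) and miR-3074-5p (1.24, limma's adjusted p = 0.0492), the latter with the opposite sign to its TPM change. These 2 of 4 stand beside 48.8% of tested miRNAs called in that fit.

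Among 219 other miRNAs whose mean reached 100 TPM, those most like the summed a cluster guides over the 6 libraries were miR-30b-5p (Pearson r = 0.996), let-7g-5p (0.995) and miR-19b-3p (0.993), computed on log2(TPM + 1). They shared the high value of P0 replicate 1: miR-30b-5p, for example, had 1368, 760 and 1184 TPM in the E14.5 libraries and 973, 48.6 and 53.9 TPM in the P0 libraries. For the summed b cluster guides they were miR-192-5p (0.932), miR-339-5p (0.929) and miR-101b-3p (0.923). For miR-24-3p they were miR-192-5p (0.953), miR-26a-5p (0.926) and miR-340-5p (0.916). The lists of the a cluster and of the b cluster thus shared 0 miRNAs, whereas miR-192-5p headed both the b cluster list and that of miR-24-3p. All of these correlations are descriptions over 6 libraries.

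Marker miRNAs of other cell types were measured in the same libraries, where 32.8% of all tested miRNAs were called lower in TPM and 5.22% after scaling. The endothelial markers miR-126a-3p and miR-126a-5p summed to 26608 to 44921 TPM at E14.5 and to 5634 to 8158 TPM at P0, and 2 of 2 were called lower in TPM and 1 of 2 after scaling. P0 replicate 1 had 8158 TPM of them, close to the 8116 TPM of P0 replicate 3. The 5 epithelial markers summed to 4122 to 23183 TPM at E14.5 and to 500.2 to 1542 TPM at P0, with 5 of 5 called lower in TPM and 3 of 5 after scaling. The 4 stromal and smooth muscle markers summed to 21326 to 33937 and 7443 to 14270 TPM (2 of 4 called lower in TPM, 0 after scaling), the 3 erythroid markers to 220.5 to 375.0 and 102.6 to 188.7 TPM (1 of 3 called lower in TPM, 0 after scaling), and the 4 leukocyte markers to 632.2 to 1202 and 453.5 to 628.6 TPM (0 of 4 called by limma in TPM, 1 called higher after scaling). The median log2 fold changes in TPM were −3.10 for the endothelial, −3.75 for the epithelial and −1.72 for the stromal list. Those of the erythroid (−1.07) and leukocyte (−0.77) lists were smaller in size than the −1.20 of all tested miRNAs. After scaling the medians were −1.81, −2.46, −0.44, 0.16 and 0.43 for the endothelial, epithelial, stromal, erythroid and leukocyte lists, so the sign of the last 2 depended on the scaling. No marker was at 0 in any library. The part of these cell types in the members' values was not tested.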

How the data were processed

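The authors deposited 1 table of 1104 rows with a TPM value per library and, per the file headers, a normalised mean (baseMean, a signal), the log2 fold change between stages and its error. The remaining deposited columns are a score (the test statistic) and the p-value, raw and adjusted. featureCounts, DESeq2 1.26.0 and mm10 are named in the submitters' processing notes. Trimming, alignment and the use of molecular tags are not given in the sources used here, so intervals and floors cover counting error only. Each deposited TPM value times end minus start was a whole multiple (within 0.001 reads) of 1 step per library, which gave the reads. Their scaled means equalled the authors' deposited baseMean, a signal (largest relative difference 4.75e-15). The 52 miRNAs with several rows were given by the row with the highest total.

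limma 3.58.1 (R 4.3.3) was fitted with a variance trend to log2(TPM + 1) of all 6 libraries, with stage as the only term, over miRNAs whose mean reached 1 TPM. Benjamini-Hochberg adjusted p-values under 0.05 were called. Folds on this scale understate the change of low miRNAs. Ratios within libraries were tested with exact permutation tests (SciPy 1.17.1). The fits were also run on simulated data with equal numbers of rises and falls among miRNAs that were not highly abundant. The simulation held no shift of the typical miRNA and no library that stood apart, so it did not cover those features. The named miRNAs were the members, the other arms of their loci, the 3 most correlated miRNAs per pattern, and the endothelial markers. Members and lists were chosen with earlier results of these data known. The replicates were separate litters, and the labels gave no batch or date.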

Additional observations from a re-analysis of the deposited data

How the results depend on the processing

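TPM placed 229 calls among 670 miRNAs (9 higher, 220 lower at P0). There were 73 (38 higher, 35 lower) with median-of-ratios scaling, 67 when the replicate block was added to it, 28 (17 higher, 11 lower) with limma-voom, and 66 to 410 when single libraries were left out. The cause was not tested. With median-of-ratios scaling the log2 fold changes of miR-23b-3p, miR-27a-3p, miR-27b-3p, miR-24-3p and miR-24-2-5p turned positive (0.42, 0.19, 1.21, 0.89 and 0.65, also with the block), as with limma-voom (0.43, 0.22, 1.22, 0.90 and 1.36), and miR-24-1-5p lost its call (−1.42, and −1.15 with limma-voom). With scaling and without P0 replicate 1, miR-23b-3p and miR-24-3p were at 0.058 and 0.71 without a call, and miR-23a-3p (−1.11), miR-27a-5p (1.70) and miR-27b-3p (1.06, opposite in sign to TPM) gained a call. Leaving out single libraries in TPM gave −2.57 to −1.08 for miR-23a-3p, −1.40 to −0.52 for miR-23b-3p, −1.68 to −0.73 for miR-27a-3p, 0.30 to 0.88 for miR-27a-5p, −0.40 to 0.14 for miR-27b-3p, −2.03 to −1.10 for miR-27b-5p, −0.75 to −0.17 for miR-24-3p, −3.20 to −1.97 for miR-24-1-5p and −1.53 to 0.40 for miR-24-2-5p. In TPM, members gained calls in no leave-one-out fit other than that without P0 replicate 1. The other arms miR-23b-5p and miR-3074-5p also turned positive with scaling (0.94 and 0.72, also with the block), limma-voom (1.02 and 0.67) and scaling without P0 replicate 1 (1.04 and 1.24), and leaving out single libraries gave −0.36 to 0.11 for miR-23b-5p and −0.89 to −0.16 for miR-3074-5p. All 8 ratios kept their direction with the other pseudocount and with single libraries left out (56 fits). The replicate block and summed rows cannot move these ratios. Deviations of same-numbered libraries correlated at 0.193, 0.183 and 0.0423, and those of differently numbered libraries at −0.182 to 0.0770. The labels stated no pairing, so the numbers were not taken to pair the samples. The replicate block (247 calls, 12 higher, 235 lower, and −2.45 for miR-24-1-5p, limma adjusted p = 0.0142) changed no member's call. The Mir24 passengers rested on as few as 22 reads in a library (miR-24-1-5p in P0 replicate 3).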
